A study of Homo sapiens with 8 samples.

Results

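HepG2 cells exposed to benzo[a]pyrene (BaP) were followed from 12 h to 24 h of exposure, by setting the 2 arrays titled BaP for 24 h against the 2 arrays titled BaP for 12 h. These 4 arrays were chosen by their titles from the 8 of the series, and each gave a value for the same 19002 genes, those of 19064 probe sets whose ID is an Ensembl gene ID. The other 4 arrays, from cells that received the solvent dimethyl sulfoxide (DMSO) for 24 h or for 12 h with 2 arrays at each time, show the change over the same time without BaP and are given beside each result. HepG2 is an established human line grown from a liver tumour. All 4 groups were grown in the same medium, and fresh medium with compound or solvent was added near confluence. DMSO was used at 0.5%, and no BaP dose is stated in the labels. Arrays were Affymetrix arrays read after labelling 250 ng of total RNA.

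BaP is a polycyclic aromatic hydrocarbon made when organic material burns. In liver cells it binds the aryl hydrocarbon receptor, which then acts as a transcription factor and raises the cytochrome P450 enzymes that oxidise BaP. The products can be conjugated and exported, or can bind DNA as bulky adducts that slow RNA polymerase and call up repair and checkpoint signalling. A culture that is sampled at a later time has also spent longer in its medium at higher density. The comparison between times in BaP therefore holds both the longer exposure and the longer culture, and the DMSO arrays measure the second of these.

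The files name genes by Ensembl ID alone, and the table of gene names held an entry for 0 of the 19002. Only 2 genes that rose and 2 that fell are named, by their IDs, and no function is attached to them. Gene lists written by symbol, markers of liver cells among them, could not be matched, so the labelled cell type was not checked against its markers. Values are on a log2 scale, so that a difference of 1 is a 2-fold change. An array of a whole culture cannot tell fewer cells that hold a transcript from less transcript in each cell.

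Array medians lay between 6.64 and 6.68, which follows from the deposited normalization. The median absolute difference between the 2 arrays of a group was 0.0891 for BaP at 24 h, 0.0773 for BaP at 12 h, 0.0964 for DMSO at 24 h and 0.0837 for DMSO at 12 h. DMSO 24 h replicate 2 stood apart in its 18S ribosomal RNA probe sets, with a mean of 11.26, while the other 7 arrays had means from 12.62 to 13.10. In the fit the BaP change between times does not use that array except through the shared estimate of the spread. The deposited normalization may also tie the arrays together, and it was not repeated without that array. The main DMSO results are also given without it, an alternative chosen after seeing the data. By their titles the arrays are biological replicates, but no label says whether separate cultures were used, so p-values measure the spread between these arrays.

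The first question was how far the exposed cells moved between 12 h and 24 h. Of 19002 genes, 2916 changed (15.3%), 1370 higher (7.21%) and 1546 lower (8.14%) at 24 h, by limma with an adjusted p under 0.05. In DMSO 1302 genes changed over the same time (6.85%), 595 higher and 707 lower. Measured over all genes, the group means of BaP at 24 h and at 12 h lay a root mean square difference of 0.251 apart. The same measure was 0.196 in DMSO. Between the 2 single arrays of a group the root mean square difference was 0.144 to 0.164. Single arrays carry more noise than means of 2, so these values are not on the scale of the group means. In limma 5269 genes had an unadjusted p under 0.05 in BaP and 4184 in DMSO. Leaving out 1 array leaves its partner alone in the group and fewer arrays for the test. A lower count in such a fit therefore does not by itself single out the array left out. The number of calls in BaP depended on single BaP arrays: leaving out BaP 24 h replicate 1 gave 1641 and replicate 2 gave 1722, while leaving out BaP 12 h replicate 1 gave 1497 and replicate 2 gave 1438. Of the genes called in these 4 fits, 1536, 1617, 1444 and 1365 were also called in the same direction with all arrays. Which direction had more calls was not stable either. Increases outnumbered decreases without BaP 24 h replicate 2 (917 and 805), without BaP 12 h replicate 1 (831 and 666) or replicate 2 (765 and 673), after cyclic loess (1612 and 1242) and at an adjusted p under 0.01 (737 and 633). The DMSO count moved more: dropping DMSO 24 h replicate 2 left 135 genes, while dropping the other DMSO array at 24 h left 1265, with 758 higher and 507 lower. Dropping the first DMSO array at 12 h left 265, dropping its partner left 39, and dropping one of the BaP arrays at 12 h left 849 whichever it was.

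**Figure D1:**
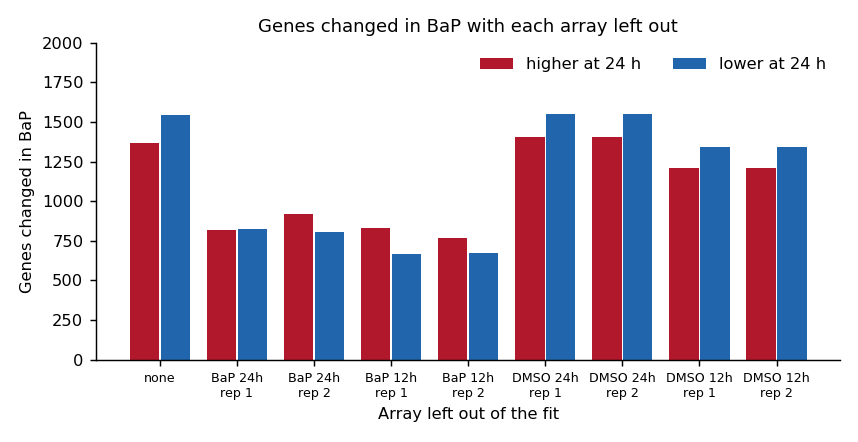
Bars give the number of genes higher (left) and lower (right) in BaP at 24 h than in BaP at 12 h (limma, adjusted p under 0.05) with the array named on the horizontal axis left out of the fit, or with none left out. The sum of both lay between 1438 and 1722 without a BaP array and between 2551 and 2953 without a DMSO array, against 2916 with all arrays.

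ENSG00000147408 had the highest change in BaP. Its log2 values were 8.75 and 8.91 in BaP at 24 h, against 6.71 and 6.47 in BaP at 12 h. In DMSO it had 8.61 and 8.99 at 24 h, against 7.69 and 7.50 at 12 h. Both BaP arrays at 12 h were the lowest of the 8, while the BaP and DMSO arrays at 24 h overlapped. It rose 4.71-fold in BaP, with a log2 change of 2.24 ± 0.14 (SE, n = 2 and 2, adjusted p = 6.18e-05 in limma), and it also rose in DMSO, by 1.21 ± 0.14 (SE, adjusted p = 0.00446). The 2 changes differed by 1.03 ± 0.19, which did not pass the threshold (adjusted p = 0.0614).

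ENSG00000231312 had 9.08 and 8.96 in BaP at 24 h, against 6.88 and 6.77 in BaP at 12 h. In DMSO its values were 8.75 and 8.96 at 24 h, against 7.86 and 7.92 at 12 h. The lowest arrays were again those of BaP at 12 h, and at 24 h the lower BaP array and the higher DMSO array both had 8.96. The log2 change was 2.20 ± 0.09 in BaP (SE, adjusted p = 2.29e-05 in limma) and 0.96 ± 0.09 in DMSO (SE, adjusted p = 0.00271). Here the difference of the changes passed, at 1.23 ± 0.13 (SE, adjusted p = 0.00555).

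ENSG00000116701 fell most in BaP. It had 7.21 and 7.28 in BaP at 24 h, against 9.05 and 9.04 in BaP at 12 h. In DMSO it had 6.18 and 5.94 at 24 h, against 6.71 and 6.62 at 12 h. All BaP arrays lay above all DMSO arrays, so at 24 h the gene was lower than at 12 h and still above the solvent level. Its log2 change was -1.80 ± 0.09 in BaP (SE, adjusted p = 2.65e-05 in limma), a 3.48-fold decrease, and -0.60 ± 0.09 in DMSO (SE, adjusted p = 0.00968). Its DMSO change no longer passed without DMSO 24 h replicate 2, at -0.48 (adjusted p = 0.0565). The difference of -1.20 ± 0.13 passed (adjusted p = 0.00647).

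ENSG00000100292 had 9.14 and 8.89 in BaP at 24 h, against 10.86 and 10.47 in BaP at 12 h. Its DMSO values were 9.01 and 8.75 at 24 h, against 9.40 and 9.16 at 12 h. Both BaP arrays at 12 h stood above the other 6, and at 24 h the BaP and DMSO arrays overlapped. The log2 change was -1.65 ± 0.15 in BaP (SE, adjusted p = 3.52e-04 in limma) and -0.40 ± 0.15 in DMSO, which did not pass (adjusted p = 0.168). The difference was -1.26 ± 0.22 (SE, adjusted p = 0.046), and this call was lost in 7 of the 8 fits that left out 1 array, with adjusted p from 0.0835 to 0.181. It was kept without BaP 12 h replicate 2 (adjusted p = 0.0469).

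**Figure D2:**
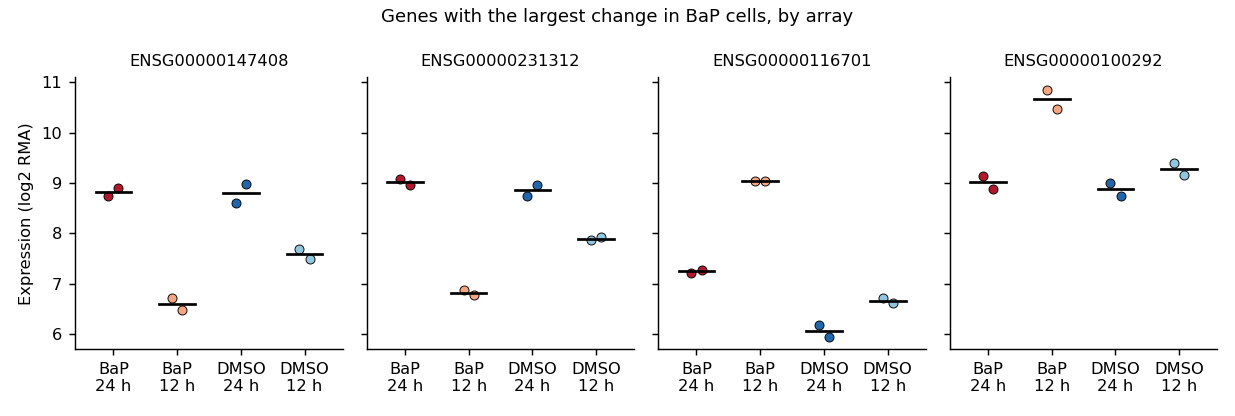
Points are single arrays and lines are group means of log2 RMA expression for the 2 top risers and the 2 top fallers in BaP, with the 4 groups along each horizontal axis. BaP at 12 h lies below all other arrays for the 2 genes that rose and above all others for the 2 that fell.

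The 12 genes with the highest change in BaP, chosen among those past the threshold, had log2 changes from 1.80 to 2.24. Their DMSO changes ranged from -0.04 to 1.21, and 8 of the 12 rose in DMSO by the same test, as did 3.13% of all genes. For 10 of the 12 the difference of the changes passed, as it did with a higher change in BaP for 0.51% of all genes. In all 12 both BaP arrays at 12 h lay below both DMSO arrays at 12 h, the position of 23.4% of all genes. At 24 h the BaP and DMSO arrays overlapped for 8 of them, BaP was above DMSO for 2 and below it for 2. Over all genes 51.1% overlapped at 24 h. Of the 16086 genes not called in BaP, 3967 were above DMSO and 3346 below on both arrays at 24 h. The 12 genes with the lowest change had log2 changes from -1.80 to -1.08 in BaP and from -0.81 to 0.06 in DMSO, where 6 fell, as did 3.72% of all genes. The difference passed for 9 of these 12, as it did with a lower change in BaP for 0.132% of all genes. All 12 were above DMSO on both BaP arrays at 12 h, the position of 30.7% of all genes, and at 24 h 5 were above, 4 below and 3 overlapped. The change in BaP and the position at 12 h or 24 h use the same BaP arrays, so these positions are a description of the genes and carry no test. The change in BaP is also a term of the difference, so the counts of differences that passed are a description as well.

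The gene with the highest BaP level over DMSO at both times, chosen after its values were seen, was among those that fell. It had 12.35 and 12.15 in BaP at 24 h, against 13.25 and 13.25 in BaP at 12 h. In DMSO it had 5.88 and 5.99 at 24 h, against 6.57 and 6.83 at 12 h. It fell 2-fold in BaP (adjusted p = 5.48e-04 in limma), and in DMSO its log2 change was -0.77 ± 0.10 (SE, adjusted p = 0.00767). The difference of the changes, -0.23 ± 0.15, did not pass (adjusted p = 0.546). Both BaP arrays lay far above the DMSO arrays at both times.

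Large changes were mostly increases. A change of at least 2-fold was found for 107 genes that rose (0.563% of all genes) and for 16 that fell (0.0842%). Of the risers 89 changed 2- to 3-fold and 18 at least 3-fold, 7 of them at least 4-fold. Of the genes that fell 14 changed 2- to 3-fold and 2 at least 3-fold. With all arrays 62 of the 107 also rose in DMSO by the test, as did 3.13% of all genes. Of the 16, 10 also fell in DMSO, as did 3.72% of all genes. The difference of the changes did not pass for 65 of the 107 and for 7 of the 16. Among changes under 1.5-fold 926 genes were higher and 1324 lower, with all arrays and the deposited scaling. The balance of all calls turned under the settings given above. The median log2 change was 0.46 among the 1370 genes that rose (quartiles 0.35 and 0.66) and -0.38 among the 1546 that fell (quartiles -0.49 and -0.31). The smallest rise called was 0.22. Without any test, both BaP arrays at 24 h lay above both at 12 h in 22.1% of genes and below them in 33.3%. In DMSO these shares were 20.8% and 29.1%. In DMSO 34 genes rose and 2 fell by at least 2-fold, and without DMSO 24 h replicate 2 it was 17 that rose. In the fits without 1 BaP array, between 106 and 121 genes rose and between 17 and 25 fell by at least 2-fold in BaP, and after scaling to the poly-A controls the numbers were 146 and 12.

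**Figure D3:**
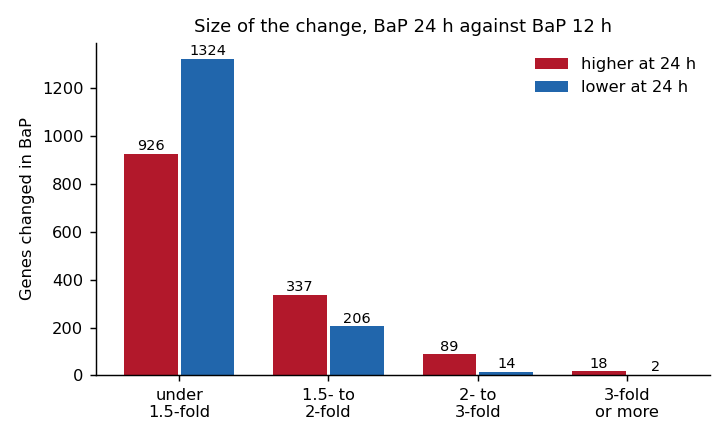
Bars count the genes changed between BaP at 24 h and BaP at 12 h (limma, adjusted p under 0.05) by size of the change, with genes higher at 24 h left and genes lower at 24 h right in each class. With all arrays and the deposited scaling, 926 genes were higher and 1324 lower under 1.5-fold, 89 and 14 at 2- to 3-fold, and 18 and 2 at 3-fold or more. The balance of all calls turned after cyclic loess and without some BaP arrays.

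The next question was how much of the movement in BaP was also seen in DMSO. No array is shared between the BaP change and the DMSO change. Both use 1 estimate of the spread per gene and values from the same deposited normalization. Of the 1370 genes that rose in BaP, 1160 (84.7%) had a positive change in DMSO, against 44.4% of all genes. Their median DMSO change was 0.20 (quartiles 0.07 and 0.38), against -0.02 over all genes, and 394 of them (28.8%) rose in DMSO by the test, where 3.13% of all genes did. Of the 1546 genes that fell in BaP, 1374 (88.9%) had a negative change in DMSO. Their median DMSO change was -0.20 (quartiles -0.33 and -0.09), and 451 of them (29.2%) fell in DMSO, where 3.72% of all genes did. Without DMSO 24 h replicate 2 the DMSO change was positive in 84.3% of the 1370 and negative in 90.6% of the 1546, with medians of 0.18 and -0.21, but 81 of the 1370 rose and 36 of the 1546 fell by the test. Among the 16086 genes not called in BaP the median DMSO change was -0.02. Across the 19002 genes the 2 changes had a Pearson correlation of 0.57 and a Spearman correlation of 0.43, given as a description because genes share arrays and are not independent.

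**Figure D4:**
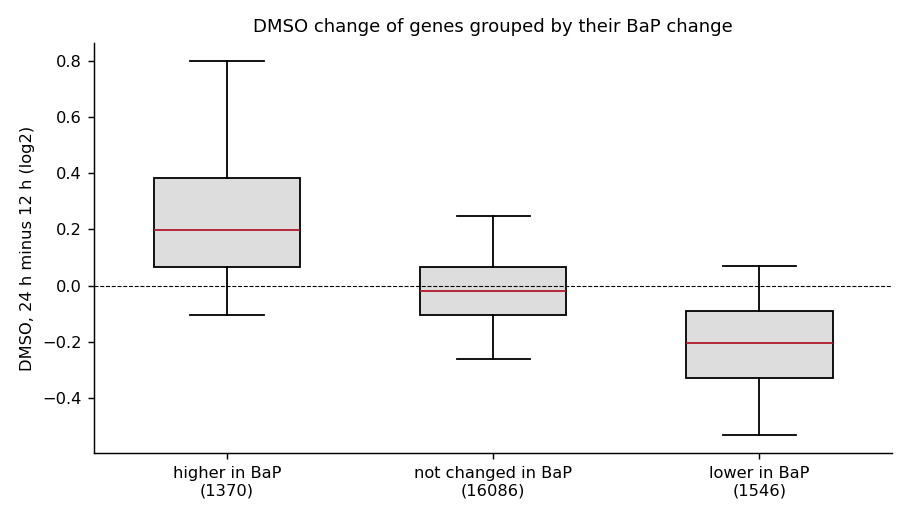
Boxes show the quartiles and median, and whiskers the 5th and 95th percentiles, of the DMSO log2 change from 12 h to 24 h for genes grouped by their call in BaP. The median is 0.20 for the 1370 genes higher in BaP, -0.02 for the 16086 not called and -0.20 for the 1546 lower.

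In all, 845 genes changed in the same direction in BaP and in DMSO, 394 higher and 451 lower at 24 h. They are 29.0% of the genes called in BaP and 64.9% of those called in DMSO. Among the 394, the median change was 0.61 in BaP and 0.52 in DMSO, and among the 451 it was -0.46 in BaP and -0.39 in DMSO. The change was the larger in BaP for 248 of the 394 and for 296 of the 451. The difference itself passed for 12 and 5 of them, each with the larger change in BaP. This count depended on single arrays. It was 121 genes when DMSO 24 h replicate 2, the array that stands apart in its 18S signal, was left out, and 712 without the other DMSO array at 24 h. Leaving out DMSO 12 h replicate 1 gave 207, and leaving out its partner gave 36. It was 522 and 540 without BaP 24 h replicates 1 and 2, and 436 and 438 without BaP 12 h replicates 1 and 2. In all 8 of these fits more genes were higher than lower in both, the opposite of the balance with all arrays. The balance also turned after cyclic loess (477 higher, 312 lower) and at an adjusted p under 0.01 (95 higher, 52 lower).

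A further 455 genes changed in DMSO and did not pass in BaP, and 395 of them had the same sign in BaP. Over all genes 63.6% had the same sign in both. The difference of the changes passed for 4 of these 455, and for 0.642% of all genes. A pair of genes was called in opposite directions, higher in BaP and lower in DMSO, and both are described here after their values were seen. One had 5.72 and 5.87 in BaP at 24 h, against 5.53 and 5.45 in BaP at 12 h, with 5.38 and 5.32 in DMSO at 24 h, against 5.80 and 5.81 in DMSO at 12 h. The other had 6.15 and 6.18 in BaP at 24 h, against 5.88 and 5.67 in BaP at 12 h, with means of 5.96 ± 0.05 in DMSO at 24 h and 6.38 ± 0.04 in DMSO at 12 h (SD, n = 2 each). In both genes BaP lay below DMSO at 12 h and above it at 24 h on every array. Their differences of 0.75 and 0.81 passed in limma, with adjusted p of 0.0251 and 0.0269.

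The difference between the BaP change and the DMSO change was then tested for every gene. It passed for 122 of 19002 genes (0.642%), 97 with a higher change in BaP (0.51%) and 25 with a lower one (0.132%). Of the 97, 95 rose in BaP, and 81 of these 95 did not pass in DMSO. Of the 25, 23 fell in BaP, and 18 of these 23 did not pass in DMSO. Over all genes 7.21% rose and 8.14% fell in BaP, and 6.85% passed in DMSO. Both changes are terms of the difference, so these counts are a description and carry no test. For 2798 of the 2916 genes called in BaP the difference did not pass, which does not show that BaP and DMSO cells changed alike. With fewer arrays fewer genes passed. The count was 44 and 41 without BaP 24 h replicates 1 and 2, and 55 and 38 without BaP 12 h replicates 1 and 2. It was 88 and 45 without DMSO 24 h replicates 1 and 2, and 32 and 31 without DMSO 12 h replicates 1 and 2.

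**Figure D5:**
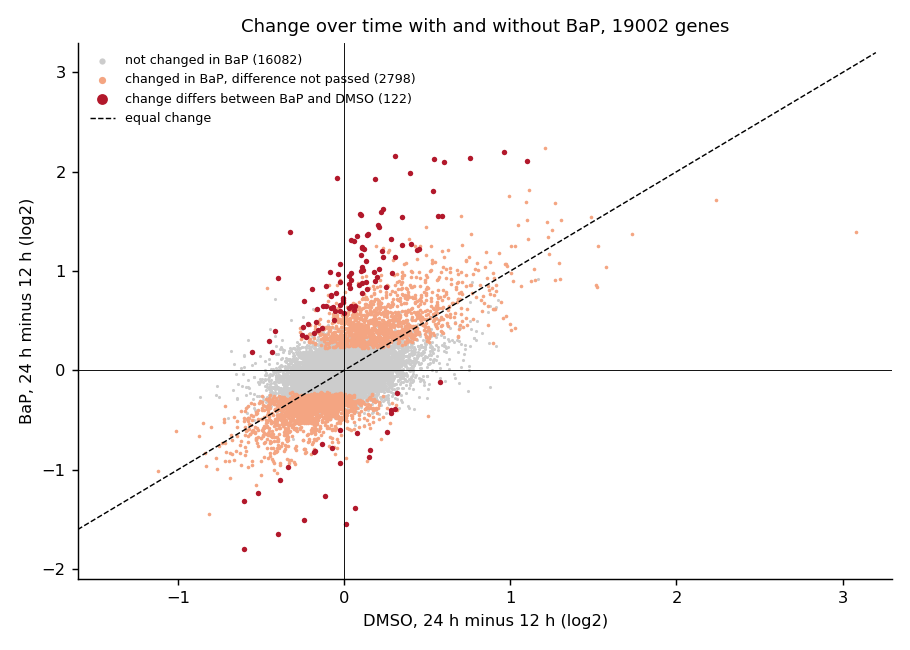
Each point is a gene, with its log2 change from 12 h to 24 h in DMSO on the horizontal axis and in BaP on the vertical axis. The 122 genes whose changes differ lie mostly above the dashed line of equal change, 97 against 25 below it.

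For the 97 genes the levels show where the exposed cells stood. Their median level was 8.25 in BaP at 24 h, 7.16 in BaP at 12 h, 8.33 in DMSO at 24 h and 8.19 in DMSO at 12 h. BaP at 12 h was the group with the low median. For the 25 genes the median level was 7.59 in BaP at 24 h, 8.93 in BaP at 12 h, 7.91 in DMSO at 24 h and 7.90 in DMSO at 12 h, with the high median again in BaP at 12 h. These genes were chosen with all 4 groups in the test, so the medians are a description. Among the 97, 42 changed at least 2-fold in BaP and 1 in DMSO. Over all genes 0.563% rose and 0.0842% fell by at least 2-fold in BaP by the test. In DMSO 34 genes rose and 2 fell by that measure. The choice of the 97 favours a larger change in BaP, so these counts are a description too.

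Positions relative to DMSO are given for all genes called in BaP as a description, since that call used the BaP arrays. Both BaP arrays at 12 h lay below both DMSO arrays in 928 of the 1370 genes that rose, where 23.4% of all genes did so, and 256 overlapped, where 45.9% of all genes did. At 24 h 535 of the 1370 were above DMSO on both arrays, 391 below, and 444 overlapped, where 51.1% of all genes overlapped. Of the 16086 genes not called in BaP, 3967 were above and 3346 below at 24 h. BaP minus DMSO had a median over the 1370 genes of 0.03 for 24 h and of -0.22 for 12 h. Of the 1546 genes that fell, 925 lay above DMSO on both BaP arrays at 12 h, where 30.7% of all genes did. At 24 h 727 of the 1546 were below DMSO on both arrays, 325 above, and 494 overlapped. Their median of BaP minus DMSO was -0.07 at 24 h and 0.13 at 12 h. Nothing is read from these shares, because the BaP arrays enter both the call and the position.

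Cell cycle genes could be matched by Ensembl ID. The sets hold genes that lead at least 90% of at least 10 marker pairs for a phase in a table installed with the R package scran, and were chosen with earlier results of these data known. G1 is the phase before DNA synthesis, S the phase of DNA synthesis, and G2M covers the gap after it and mitosis. In BaP 52 of 200 S genes fell (26.0%) and 22 rose (11.0%), against 8.14% and 7.21% of all genes. Of 214 G1 genes 48 fell (22.4%) and 17 rose (7.94%), and of 193 G2M genes 26 fell (13.5%) and 16 rose (8.29%). The median log2 change in BaP was -0.09 for S, -0.08 for G1 and -0.04 for G2M, against -0.03 for all genes. In DMSO the medians were -0.10, -0.10 and -0.03, and 36 S genes, 34 G1 genes and 13 G2M genes fell, where 3.72% of all genes did. Without DMSO 24 h replicate 2 the medians were -0.11 for S, -0.08 for G1 and -0.05 for G2M, and 3, 4 and 1 genes fell. With all arrays 29 of the 52 S genes that fell in BaP also fell in DMSO. So did 26 of the 48 G1 genes, 8 of the 26 G2M genes and 29.2% of all 1546 genes that fell in BaP. The counts in BaP moved with single BaP arrays. Leaving out BaP 12 h replicate 2 left 28 S, 25 G1 and 14 G2M genes that fell, and leaving out BaP 12 h replicate 1 left 32, 30 and 14. Leaving out BaP 24 h replicate 1 left 36, 34 and 17, and replicate 2 left 34, 33 and 16.

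The difference between BaP and DMSO passed for 1 S gene, 1 G1 gene and 2 G2M genes, near the share of 0.642% over all genes. The sets share members, with 22 S genes, 22 G1 genes and 30 G2M genes found in another set. Their genes were also brighter, with median levels of 8.27, 9.20 and 8.29 against 6.67 for all genes, and brighter genes passed the test more often, as given next. After cyclic loess the medians in BaP were -0.06 for S, -0.05 for G1 and -0.01 for G2M. Scaling to the poly-A controls, which moved the median of all genes to 0.05 and not -0.03, left medians of -0.01 for S, -0.00 for G1 and 0.04 for G2M. Under that scaling 3 S genes rose and 2 fell, 4 G1 genes rose and 2 fell, and 3 G2M genes rose and 0 fell.

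Calls in BaP were unevenly spread over the range of levels. Genes were split by mean level over the 8 arrays into 3 classes of 6334. In the lowest class 0.884% rose and 1.96% fell, in the middle class 7.64% rose and 7.25% fell, and in the highest 13.1% rose and 15.2% fell. Of the 107 genes that rose at least 2-fold, 1 was in the lowest, 41 in the middle and 65 in the highest class. Whether dim genes changed less or were measured with less signal over background was not tested. Probe sets for a bacterial tryptophan operon transcript, taken here as a blank because standard spike-in mixes lack it, gave at most 4.35. Of the 3153 genes with a mean at or below that level, 51 were called in BaP.

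Control probe sets on the array name a few transcripts. The 3 probe sets of GAPDH, an enzyme of glycolysis, changed by 0.02 to 0.04 in BaP and by 0.02 to 0.05 in DMSO. Those of beta-actin, a protein of the cytoskeleton, changed by 0.08 to 0.20 in BaP and by 0.05 in DMSO. The 4 probe sets of ISGF3A, a factor of interferon signalling, had changes between -0.07 and 0.16 in BaP. None of these passed in limma fitted to all 19064 probe sets, or had an unadjusted p under 0.05. The probe sets for the middle and the 5' part of 28S ribosomal RNA had 9.95 and 9.93, and 11.79 and 11.73, in BaP at 24 h, against 9.70 and 9.78, and 11.50 and 11.24, in BaP at 12 h. Their log2 changes of 0.20 ± 0.07 (SE, adjusted p = 0.112) and 0.39 ± 0.13 (SE, adjusted p = 0.0756) did not pass, although the arrays of the 2 times did not overlap.

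The 24 poly-A control probe sets, bacterial transcripts that are normally spiked into the RNA ahead of labelling, were close at both times in BaP. Their mean was 9.56 and 9.20 in BaP at 24 h, against 9.61 and 9.31 in BaP at 12 h, so the 2 arrays of each time differed more than the times. In DMSO it was 9.45 and 9.08 at 24 h, against 9.92 and 9.91 at 12 h, and 11 of the 24 passed there. As a measure of RNA quality, the 5' minus the 3' probe set of beta-actin was -0.33 and -0.24 in BaP at 24 h, against -0.48 and -0.31 in BaP at 12 h. In DMSO it lay between -0.36 and -0.32. BaP 12 h replicate 1 had the lowest value, and its part in the changes was not tested beyond leaving that array out. An error shared by both arrays of a time cannot be told apart from time.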

How the data were processed

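Transcript levels of HepG2 cells in 4 groups of 2 arrays were used. Per the submitters' processing notes, the authors used RMA and R 2.12.2, and the deposited values are log2 expression. RMA gives every array the same distribution, so a shift shared by all transcripts is removed. The sources used here do not state how probes were assigned to genes. A second deposited copy of the log2 values served as an alternative.

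Group means were modelled over all 8 arrays with limma 3.58.1 in R 4.3.3, leaving 4 residual degrees of freedom, and moderated by empirical Bayes. The procedure was tested on simulated data. Contrasts were BaP at 24 h minus 12 h, DMSO at 24 h minus 12 h, and their difference, each adjusted by Benjamini-Hochberg over 19002 genes. Dim genes were kept. Control probe sets were assessed in a separate model over all 19064. Named genes are, without symbols, the 2 highest and 2 lowest in BaP past the threshold whose arrays at 24 h lie on one side of those at 12 h. Further genes are described without an ID, and those outside the 12 highest and 12 lowest are said to be chosen after their values were seen. Arrays carry no count depth, and 2 per group limit the precision. Alternatives were the replicate block, each array left out, the BaP arrays alone, 3 scalings, a filter, other moderation, a stricter threshold, a minimum fold of 1.2 and the second copy. The comparison, the gene sets and some alternatives were chosen with earlier results of these data known.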

Additional observations from a re-analysis of the deposited data

Results flagged for a closer look

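The change from 12 h to 24 h differed between BaP and DMSO for 122 genes by a test of the difference itself in limma. Among the 4 genes given by ID, it differed for ENSG00000231312, whose change was 1.23 higher in BaP than in DMSO. It also differed for ENSG00000116701, at -1.20, and for ENSG00000100292, at -1.26. The call for ENSG00000100292 was lost in 10 of the 17 alternatives given below, and that for ENSG00000231312 in 1. Groups of 2 arrays are too small for a test of single arrays that lie far from the rest.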

How the results depend on the processing

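The labels do not say that a replicate number marks a shared culture or day. The authors' deposited table marks the columns of each group Ex2 and Ex3, which could name experiments shared by the groups, but no source used here explains them. In the data, over the 6 pairs of groups same-numbered arrays had correlations of their deviations from -0.05 to 0.14, not all above 0.1, so the numbers were not taken as pairs. With the replicate block the counts were 3062 in BaP, 1388 in DMSO, 151 for the difference, 123 for changes of at least 2-fold in BaP and 895 in the same direction in both, and the calls of the 4 genes given by ID did not change. With 1 array left out, where its lone partner is assumed to vary like the other groups, the number called was 1438 to 2953 in BaP, from 39 to 1265 in DMSO, from 31 to 88 for the difference, from 123 to 142 for at least 2-fold changes and from 36 to 712 in the same direction. A threshold of 0.01 on the adjusted p left 1370 in BaP, 188 in DMSO, 31 for the difference and 147 in the same direction, and with a minimum fold of 1.2 they were 523, 48, 31 and 38. Scaling to the poly-A controls moved the median of all genes to 0.05 in BaP, 0.63 in DMSO and -0.58 for the difference, and gave 345 genes in BaP (300 higher, 45 lower), 15767 in DMSO, 22 for the difference (1 higher, 21 lower) and 295 in the same direction. The cause of the lower count in BaP was not tested. Without the lowest of the 3 level classes 276 differed, and with trended and robust moderation 318 differed and 2012 changed in DMSO. Cyclic loess gave 1612 higher and 1242 lower in BaP, and 721 higher and 486 lower in DMSO. The BaP changes of the 4 genes given by ID kept their direction and their call in all 18 alternatives, from 2.12 to 2.36 for ENSG00000147408, from 2.13 to 2.28 for ENSG00000231312, from -1.83 to -1.72 for ENSG00000116701 and from -1.85 to -1.46 for ENSG00000100292. Their differences from DMSO were less stable. That of ENSG00000100292 was lost in 10 of 17 alternatives (adjusted p from 2.36e-04 to 0.213), and that of ENSG00000231312 only after poly-A scaling (0.66, adjusted p = 0.157). That of ENSG00000147408 passed in 2 of 17 (adjusted p from 0.024 to 0.366), and that of ENSG00000116701 passed in all 17. The cause of these losses was not tested. Medians of gene lists by symbol were planned and could not be run.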

Other observations

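The gene with the largest rise in DMSO, chosen after its values were seen, had a smaller rise in BaP. It had 6.85 and 7.86 in BaP at 24 h, against 5.83 and 6.08 in BaP at 12 h. In DMSO it had 8.14 and 8.44 at 24 h, against 5.21 and 5.20 at 12 h. Its log2 change was 1.40 ± 0.27 in BaP (SE, adjusted p = 0.00894 in limma) and 3.08 ± 0.27 in DMSO (SE, adjusted p = 0.00232). The difference of -1.69 ± 0.38, the lowest of all 19002 genes, did not pass (adjusted p = 0.103).

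The largest change in BaP that was not called was a rise of 0.92 ± 0.41 (SE, adjusted p = 0.183 in limma), in a gene chosen after its values were seen. That gene had 6.05 and 6.97 in BaP at 24 h, against 5.34 and 5.84 in BaP at 12 h, and replicate 2 lay above replicate 1 in all 4 groups.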
